A study of Mus musculus with 11 samples.

Results

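Of 66863 H3K4me1 domains called in proliferating C2C12 myoblasts, 18811 (28.1%) shared no base with any H3K4me1 domain called in 48 h myotubes, and these 18811 myoblast-only domains are described here. The other 48052 overlapped a myotube domain and are called shared. The domains were selected on the same H3K4me1 calls that give their values, so the number, length, read counts and fold of these domains describe how they were selected and carry no test. The mirror set, 22400 of 70587 myotube domains (31.7%), had no myoblast counterpart.

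C2C12 is a mouse myoblast line of C3H origin whose cells divide in rich serum and fuse into myotubes once serum is lowered. The proliferating cells grew in 10% FBS, and the myotube samples had spent 48 h in medium with 2% horse serum and insulin, transferrin and selenium. ChIP-seq gave 1 H3K4me1 list for each stage, 1 MyoD list for each stage and 1 MyoG list for myotubes. PolyA RNA-seq was made from 4 cultures after 4 h in differentiation medium: RNA interference against the MyoD distal regulatory region RNA (DRRi) with RNA interference against GFP (GFPi) as its control, and overexpression of that RNA (pHAN_DRR1.2) with GFP overexpression (pHAN_GFP) as its control. No expression values of proliferating myoblasts or of 48 h myotubes were used, so expression is given at 4 h only, between the 2 stages of the ChIP. Each group had 1 sample. The domain, peak and expression differences therefore have no replicate check, and every interval below is an exact 95% Clopper-Pearson interval (for medians, an order-statistic interval) that covers counting error alone.

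Monomethylation of lysine 4 of histone H3 is laid down at enhancers, often before they become active, and also flanks active promoters. The mark is written mainly by the KMT2C and KMT2D methyltransferases, which sequence-specific factors bring to their sites. In muscle cells MyoD, a bHLH factor that binds E-box sequences (CANNTG), commits cells to the lineage and binds many enhancers, and MyoG, a related factor induced early in differentiation, joins it at genes of the contractile apparatus. As cells leave the cycle, part of the enhancer set of the proliferating state is decommissioned.

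Sequence could be shown only at gene starts, because coordinates are in mm9 and the sequences used here are RefSeq promoters of GRCm38.p6, matched by symbol. There were 19 genes whose 250 bases upstream of the start shared at least 1 base with a myoblast-only domain and at least 1 with a myoblast MyoD peak and whose start had no shared domain within 1 kb. Of these, 7 had 1 promoter entry and a locus as long as the RefSeq gene. The 4 below were picked after their values were seen. They are the 2 whose MyoD peak overlapped no myotube MyoD peak and the 2 with the highest MyoD peak score among the rest. Each line gives the 250 bases before the start, 5′ to 3′ on the gene's strand. Capitals mark the E-boxes CAGCTG and CAGGTG and the AP-1 site TGANTCA, each searched on both strands.
Thsd7a: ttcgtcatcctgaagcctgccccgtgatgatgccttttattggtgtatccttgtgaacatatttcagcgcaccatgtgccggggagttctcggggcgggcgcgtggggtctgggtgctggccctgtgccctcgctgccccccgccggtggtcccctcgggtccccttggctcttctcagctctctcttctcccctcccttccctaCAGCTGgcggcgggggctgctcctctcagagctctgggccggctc
Ahctf1: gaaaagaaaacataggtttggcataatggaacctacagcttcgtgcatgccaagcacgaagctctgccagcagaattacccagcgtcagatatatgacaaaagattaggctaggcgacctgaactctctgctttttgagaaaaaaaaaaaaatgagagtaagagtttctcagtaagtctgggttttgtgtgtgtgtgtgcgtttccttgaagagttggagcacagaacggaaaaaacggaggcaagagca
Gm11563: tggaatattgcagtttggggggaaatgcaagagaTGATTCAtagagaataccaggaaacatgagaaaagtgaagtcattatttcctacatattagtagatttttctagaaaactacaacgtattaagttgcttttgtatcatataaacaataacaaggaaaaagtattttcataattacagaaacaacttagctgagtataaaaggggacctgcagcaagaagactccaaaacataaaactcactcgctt
Eci1: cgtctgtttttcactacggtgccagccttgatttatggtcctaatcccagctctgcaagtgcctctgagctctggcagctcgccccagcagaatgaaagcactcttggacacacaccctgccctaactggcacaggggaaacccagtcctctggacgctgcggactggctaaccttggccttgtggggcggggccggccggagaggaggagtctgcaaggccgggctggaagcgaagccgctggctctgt

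Thsd7a, a membrane protein of endothelial and neural cells, starts on the minus strand of mm9 chromosome 6 at 12699253. Its domain (chr6:12699401-12701000) held 80 ChIP and 20 control reads, and its MyoD peak scored 127. The domain covered 103 of the 250 bases and the peak 11, and the CAGCTG lay in neither. Thsd7a stood at 0.894 FPKM (fragment counts normalised for transcript length and library size) in GFPi and 1.25 FPKM in DRRi. Ahctf1, which encodes the nuclear pore protein ELYS, starts at 181734146 on the minus strand of chromosome 1 and had 54 ChIP and 22 control reads in its domain, which covered 196 of the 250 bases, and its peak 140. Its level was 23.2 FPKM in GFPi and 18.4 FPKM in DRRi, so the start of a gene read at 4 h can lie beside a domain that was not called at 48 h. Gm11563 (chromosome 11, start 99520273, minus strand) had the highest MyoD peak score of any myoblast-only domain, 3100, and was listed at 0 FPKM in all 4 libraries. Its domain and peak covered all 250 bases, the TGANTCA included. Eci1, a mitochondrial enoyl-CoA isomerase of fatty acid oxidation (chromosome 17, start 24563628, plus strand), had 35 ChIP and 5 control reads in a 600 bp domain that covered 23 of the 250 bases, with the peak over all of them, and stood at 19.6 FPKM in GFPi. CAGCTG stood in the 250 bases of Thsd7a alone among the 7 genes, and TGANTCA in those of Gm11563 alone. Over all 32851 promoters of the table, 13.0% held CAGCTG, 17.2% CAGGTG and 6.75% TGANTCA. Gene starts with a single promoter entry and a myoblast MyoD peak touching the 250 bases held CAGCTG in 13 of 62 cases near myoblast-only domains (21.0%, 11.7 to 33.2) and in 132 of 417 near shared domains (31.7%, 27.2 to 36.4). The same starts held CAGGTG in 6 of 62 cases (9.68%, 3.63 to 19.9) and in 104 of 417 (24.9%, 20.9 to 29.4). A match of these letters is a description and not a binding site.

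Myoblast-only domains were shorter and held fewer reads than shared domains, with nearly the same fold. The median length was 1600 bp (5th to 95th percentile 600 to 3800 bp) against 2600 bp for shared domains. The median domain held 50 H3K4me1 ChIP reads and 20 control reads, against 103 and 40. The deposited fold of ChIP over control reads, scaled for the 2 library sizes, had a median of 2.24 in myoblast-only and 2.35 in shared domains. Together they covered 34.1 Mb, 16.4% of the marked bases and 12.3% of the ChIP reads inside myoblast domains. The share of domains that were myoblast-only was lower in longer domains. Of domains up to 600 bp, 57.7% were myoblast-only, of those from 1600 to 2800 bp 31.5%, and of those of 5 kb or more 3.03% (300 of 9895). By fold the share was highest at both ends. It was 34.1% below a fold of 1.5, 23.6% between 3 and 4, and 40.5% at a fold of 4 or more. At that top end, 1433 myoblast-only domains (7.62%) reached a fold of 4, against 4.38% of shared domains.

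**Figure D1:**
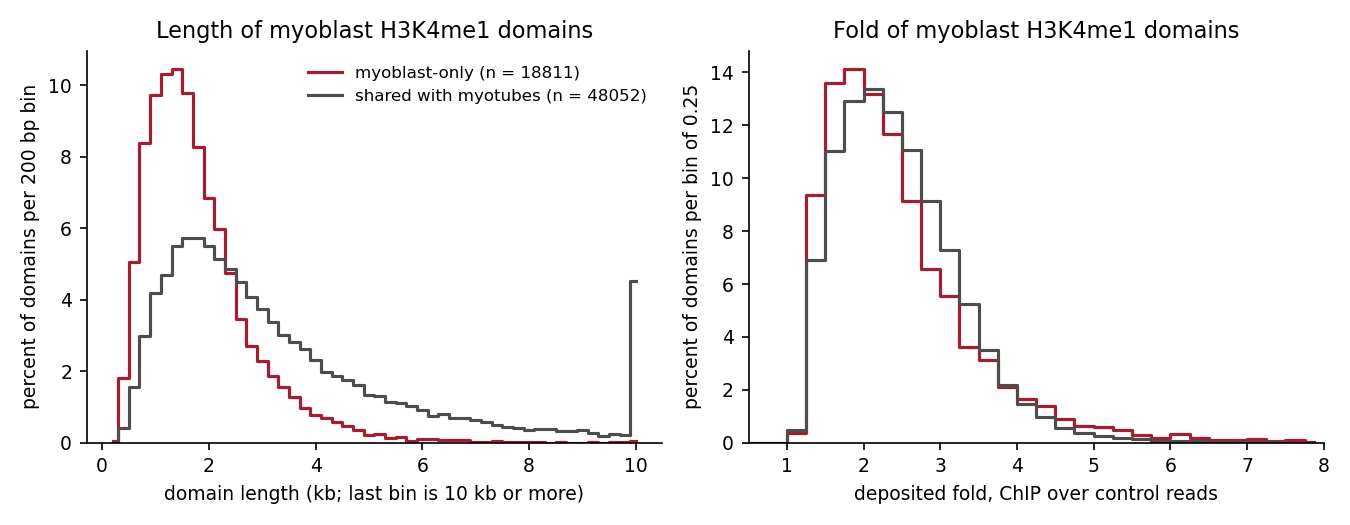
Percent of domains by length (left, kb, bins of 200 bp, last bin 10 kb or more) and by deposited fold of ChIP over control reads (right, linear axis, bins of 0.25; the few domains above a fold of 8 are not drawn) for 18811 myoblast-only domains (red) and 48052 shared domains (grey). The red length curve lies to the left, with a median of 1600 bp against 2600 bp. The red fold curve lies above the grey one from a fold of 1.25 to 2 and above a fold of 4.

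At the edge of the rule, 1083 myoblast-only domains had a myotube domain within 1 kb, with a median fold of 2.03, and 858 shared domains were overlapped over 400 bp or less, with a median fold of 2.34. The nearest myotube domain was 7 kb away at the median (quartiles 2.60 and 20.2 kb). The deposited folds correspond to ChIP libraries 1.17 times as large as the control in myoblasts and 1.02 times in myotubes, and the total depth of the libraries is not known from these lists. Whether a myotube domain was missed for lack of reads was not tested.

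The longest domain, also the one with most reads, spanned 16.2 kb of chromosome 8 (chr8:96205601-96221800), 113 kb from Gnao1, a G protein subunit gene, with 843 ChIP and 439 control reads, a fold of 1.65. Among the other domains with most reads or greatest length, those with a fold of 2 or more included the following. A domain of 10.2 kb 16.1 kb from Csda (chr6:131288601-131298800; Csda, now Ybx3, is a Y-box protein that binds DNA and RNA) held 636 ChIP and 118 control reads, a fold of 4.63. Inside Hmga2, an architectural chromatin protein of embryonic and proliferating cells, 2 domains of 13.8 kb (chr10:119873601-119887400) and 12.2 kb (chr10:119897001-119909200) held 507 and 565 ChIP reads against 217 and 180 control reads. Alcam, an immunoglobulin-type adhesion molecule, had a domain of 11.4 kb (chr16:52375001-52386400) with 539 ChIP and 116 control reads, 31.8 kb from the nearest myotube domain. Gas2, an actin-associated protein of growth-arrested cells, had one of 10.4 kb (chr7:59219001-59229400) with 455 against 131 reads. Control reads also marked some of the largest domains. Between 80 and 100 Mb of chromosome 8 they reached 28.3 per kb in myoblast domains, against 15.6 per kb elsewhere, and 4 of the 10 myoblast-only domains with most reads and 4 of the 10 longest lay there. The 121 myoblast-only domains of that stretch had a median fold of 1.49, and their part in the ranking by reads and length was not otherwise tested.

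Hmga2 and Alcam showed different layouts. At Hmga2 (mm9 chromosome 10, 119798330 to 119913991), 7 of 10 myoblast domains within 10 kb of the locus were myoblast-only and summed to 41.2 kb, the largest sum among predominantly myoblast-only genes. They flanked a shared domain of 41600 bp that 5 myotube domains overlapped. At Alcam (chromosome 16, 52249108 to 52453110), 10 of 13 were myoblast-only, summing to 31.0 kb, and the 3 myotube domains were 1.00 to 1.60 kb long and lay in the part of the locus nearest the gene's start. Alcam had 4 myoblast MyoD peaks and 1 myotube MyoD peak, Hmga2 had 2 and 5. At 4 h, Hmga2 stood at 39.0 FPKM in GFPi, 55.8 in DRRi, 20.4 in pHAN_GFP and 34.2 in pHAN_DRR1.2, and Alcam at 30.0, 23.3, 6.62 and 8.17 FPKM in the same order. Both genes thus had transcripts in each of the 4 libraries.

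MyoD peaks of myoblasts were found in 1097 of the 18811 myoblast-only domains (5.83%, 5.50 to 6.18) and in 12086 of the 48052 shared domains (25.2%, 24.8 to 25.5), beside 19.7% of all myoblast domains. The MyoD libraries had no part in the selection. The gap was present in each length class. Among domains of 1600 to 2800 bp the shares were 6.38% and 16.4%, and among those of 5 kb or more 19.0% and 52.0%. In the other direction, 8.32% of the myoblast domains with a MyoD peak were myoblast-only, against 33.0% of those without. Within the myoblast-only class, domains with a MyoD peak had a median length of 2000 bp and a median fold of 2.62, and those without had 1600 bp and 2.22. At most 2 MyoD peaks lay in one of them, in 24 domains, whereas shared domains held up to 8. In myotubes, MyoD peaks lay in 3.72% of the myoblast-only domains (27.9% of all myoblast domains) and MyoG peaks in 3.60% (25% of all).

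MyoD peaks inside myoblast-only domains were seldom called again in myotubes. Of 1121 such peaks, 344 (30.7%, 28.0 to 33.5) overlapped a myotube MyoD peak, against 77.5% of 14613 peaks in shared domains, 72.3% of 2407 peaks outside every myoblast domain and 73.9% of all myoblast MyoD peaks. Peak score, the caller's measure of strength, differed between the classes, with a median of 122 in myoblast-only and 186 in shared domains, but the gap was present in each score class. It was 19.6% against 57.6% for scores from 60 to 100, and 65.5% against 96.2% for scores of 400 or more. A myotube MyoG peak overlapped 25.2% of the peaks in myoblast-only domains and 69.2% of those in shared domains (64.3% of all). Neither factor was called in myotubes at 62.0% and 18.1%. Conversely, 364 of the 708 myotube MyoD peaks in these domains overlapped no myoblast MyoD peak. Their median score was 113 over the 708, against 175 over all myotube MyoD peaks.

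**Figure D2:**
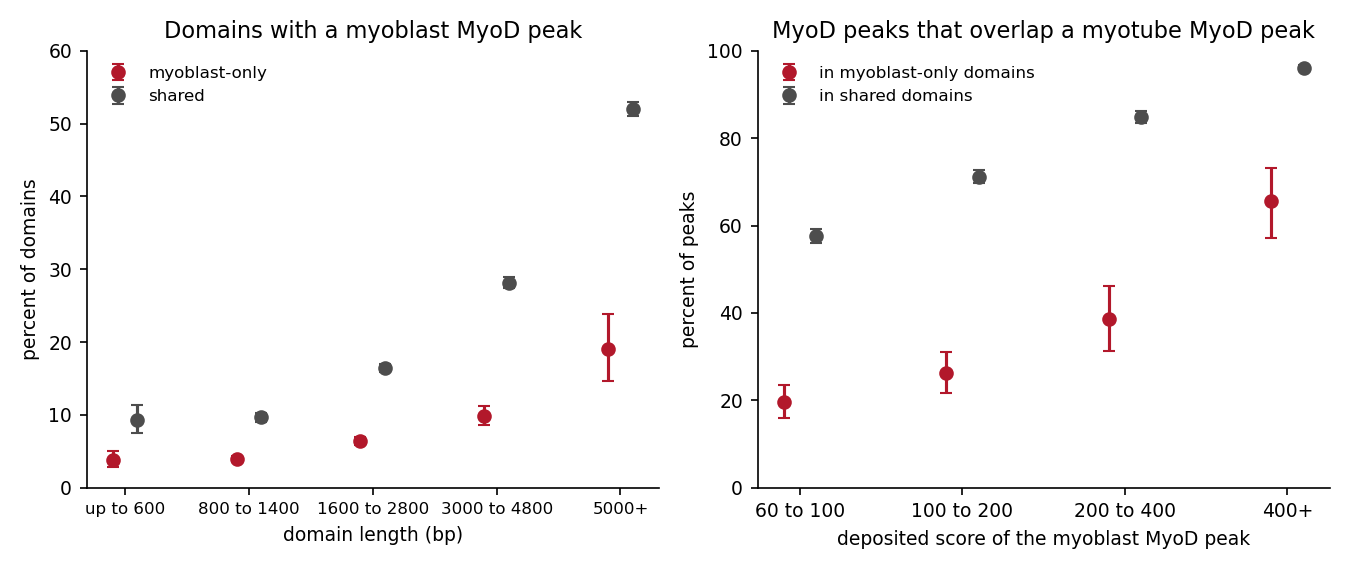
Left, percent of myoblast-only (red) and shared (grey) domains that hold a myoblast MyoD peak, by domain length in bp. Right, percent of the MyoD peaks in each class of domain that overlap a myotube MyoD peak, by the peak's deposited score. Points are shares and bars exact 95% intervals for counting error; red lies below grey in every class, from 6.38% against 16.4% at 1600 to 2800 bp and from 19.6% against 57.6% at scores of 60 to 100.

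Single domains differed in what remained in myotubes. A domain 284 kb from Tmem182 (chr1:41196201-41203800), among the 10 with most reads, held 465 ChIP and 121 control reads and a MyoD peak of score 953, with neither MyoD nor MyoG in myotubes. In Fmn2, a formin that nucleates actin filaments, a 7.4 kb domain (chr1:176569801-176577200) with 356 against 80 reads held 2 MyoD peaks, the stronger of score 854, and again no myotube peak, 1.6 kb from a myotube domain. A domain 148 kb from Cxcl12, a chemokine, also held 2 MyoD peaks, with a score up to 1051 (chr6:117279001-117284400), and had 1 myotube MyoD and 1 MyoG peak. It lay 0.8 kb from a myotube domain. Of the 10 domains with the highest MyoD score, 9 held a myotube MyoD peak. The exception, 364 kb from Trps1 (chr15:51085801-51087600, score 1873), held neither factor in myotubes.

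Myoblast-only domains lay farther from genes than shared domains. Loci were the spans given in the expression tables, which carry no strand. Inside a locus lay 41.4% of them against 57.2% of shared domains, and within 5 kb outside one 11.9% against 10.3%. More than 5 kb from every locus lay 8781 (46.7%, 46.0 to 47.4), against 32.6% of shared domains and 36.5% of all myoblast domains. The share that was myoblast-only was 22.1% inside loci, 33.0% at 5 to 50 kb, 39.4% beyond 50 kb and 61.5% (355 of 577, 57.4 to 65.5) beyond 500 kb. Those 355 had a median fold of 2.88, against 2.19 for myoblast-only domains inside loci, and shared domains showed the same order, 2.82 against 2.31. Of domains with at least 10 control reads, the highest fold was 7.37, 954 kb from Odz4 (chr7:102402601-102405400, 103 against 12 reads), and the next 7.15, 61.7 kb from Nudt12 (chr17:59214401-59215800). The 10 highest ranged from inside a locus (Abca13) to that 954 kb.

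They were also counted as runs along the chromosomes. Counting consecutive myoblast domains with no shared domain between them, there were 11020 runs, of which 7021 were single domains. Runs of at least 2 held 62.7% of the domains, and 488 runs of 5 or more held 16.5%. The shares that the overall 28.1% would give in random order were not computed. Runs follow order and not distance, and those of 15 domains spanned up to 4572 kb. The longest had 19 domains over 632 kb of chromosome 4 (93591201 to 94222800) around 5830433M19Rik. A run of 15 domains on chromosome 13 (27136601 to 28382000) spanned the prolactin gene cluster of pituitary and placental hormones. Its median fold was 3.65, no myotube domain lay in it, and all 23 genes were below 1 FPKM in GFPi, the highest, Prl2c1, at 0.396. Another of 15 on chromosome 7 (66071401 to 70643800) covered Magel2, Mkrn3, Ndn, Snrpn and Ube3a, an imprinted cluster, where Ube3a, a ubiquitin ligase, stood at 14.9 FPKM in GFPi and Magel2 was listed at 0. Neither gene had a myoblast domain within 10 kb. A further run of 15 on chromosome 13 (12634001 to 13598200) included Nid1, a basement membrane protein, at 198 FPKM. Long runs thus covered both expressed and silent genes. Of the 25 longest, 5 overlapped no locus and 15 no myotube domain, and 22 of the 74 genes in them (29.7%) reached 1 FPKM in GFPi, against 51.6% of all genes.

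Chromosome X stood apart from the autosomes. Of its 941 myoblast domains, 447 were myoblast-only (47.5%, 44.3 to 50.8), while the autosomes ranged from 23.2% to 33.4%. By length class the share on X was above that of the autosomes together, 48.6% against 31.2% at 1600 to 2800 bp and 31.8% against 14.3% at 3000 to 4800 bp, but at 5 kb or more, with 4 of 76 domains on X, the interval (1.45 to 12.9) covered the autosomal 3.01%. The mirror share, myotube domains without a myoblast counterpart, was also highest on X, 36.6% against 27.4% to 34.1% on autosomes. X had 0.840 myotube domains per myoblast domain, and the autosomes had 0.991 to 1.12. ChIP reads per kb of X domains were below those of every autosome at both stages, 35.9 against 42.6 to 50.5 in myoblasts and 29.5 against 34.9 to 42.9 in myotubes. Control reads per kb of X domains were 12.6 in myoblasts, below the autosomal 12.9 to 19.4, and 12.1 in myotubes, within the autosomal 9.71 to 17.6. The part of read density in the difference was not tested. Chromosome number in C2C12, an aneuploid line, was not measured here.

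**Figure D3:**
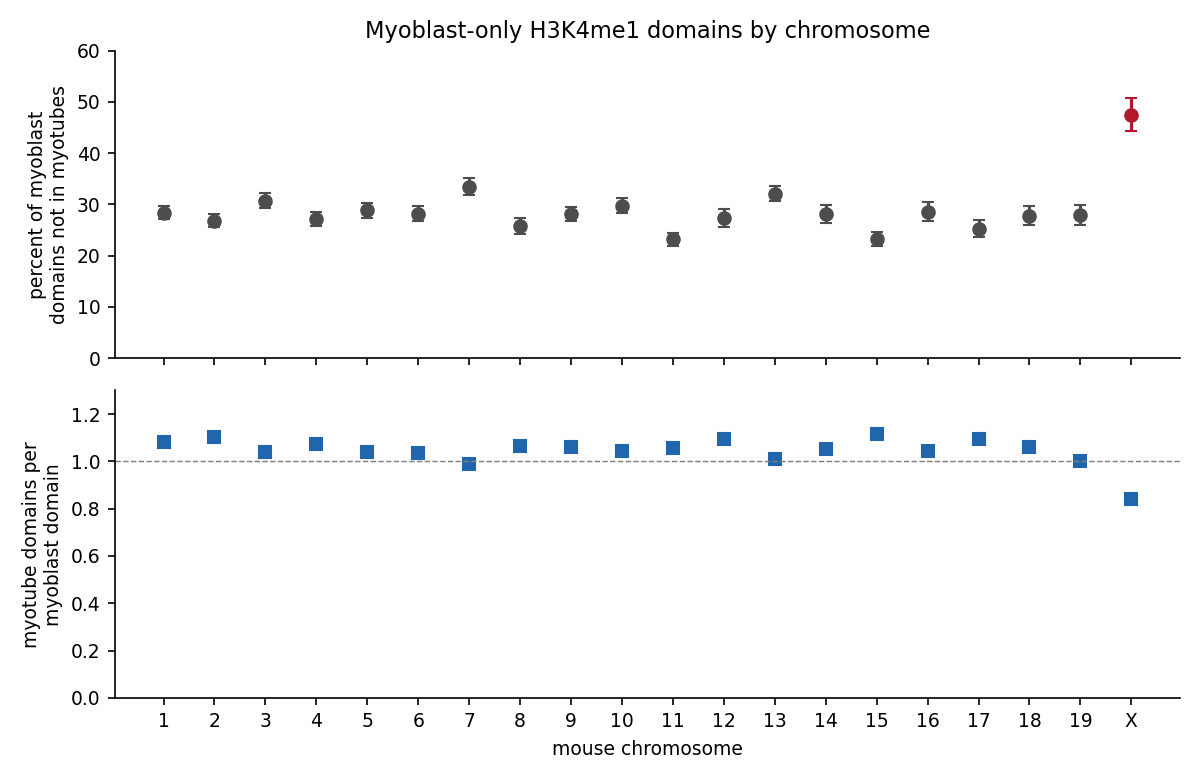
Top, percent of myoblast H3K4me1 domains that are myoblast-only on each mouse chromosome, with exact 95% intervals for counting error. Bottom, myotube domains per myoblast domain, with a dashed line at 1. X (red) stands at 47.5%, the autosomes (grey) between 23.2% and 33.4%, and X has the lowest ratio, 0.840.

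Genes differed in how much of their myoblast H3K4me1 was myoblast-only. Within 10 kb of their loci, 7918 of 20368 genes (38.9%) had at least 1 myoblast-only domain. For 790 genes (3.88%) there were at least 3 and no fewer than there were shared domains, and these genes are called predominantly myoblast-only. Of these, 87 had no myotube domain at all. Long loci collect more domains: the median locus was 72.3 kb in this class and 19.1 kb over all genes. Over all genes, 24.2% of the domains within 10 kb were myoblast-only.

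Lists of genes of the differentiated muscle fibre lay below that level. Of the lists of other lineages, endothelial, blood and neural markers lay above it, and adipocyte and osteoblast markers were close to it, at 25.3% (19 of 75, 16.0 to 36.7). At 30 sarcomere genes 9 of 80 domains (11.3%, 5.28 to 20.3) were myoblast-only, at genes of excitation, synapse and muscle metabolism 11 of 87 (12.6%), and at 18 myogenic regulators 18 of 140 (12.9%, 7.80 to 19.6). Myod1, Myf5 and Myog had none. Pax3, the paired-box factor of embryonic muscle progenitors, was the only regulator that was predominantly myoblast-only, with 4 of 6 domains, at 0.0234 FPKM in GFPi. It also had 4 myotube domains, of which chr1:78151601-78156200 and chr1:78165801-78167800 overlapped no myoblast domain. Inhibitors of differentiation and Notch genes stood at 12.4% (15 of 121), with both domains of Id4, an inhibitor of bHLH factors, myoblast-only. Endothelial, blood and neural markers had 20 of 39 (51.3%, 34.8 to 67.6). Only the endothelial adhesion gene Pecam1 (4 of 7) and the VEGF receptor gene Kdr (5 of 7) were predominantly myoblast-only, both below 0.03 FPKM in GFPi. The neural marker Rbfox3 had 3 of 8, with 12 myotube domains, and the T cell marker Cd3e 2 of 3. Odorant and pheromone receptor families were rarely marked, with shares whose intervals overlapped that of the endothelial, blood and neural list. Of 1110 olfactory receptor genes 52 had any myoblast domain, and 37 of their 69 domains (53.6%, 41.2 to 65.7) were myoblast-only, and so were 10 of 14 at vomeronasal receptors (71.4%, 41.9 to 91.6).

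Genes of proliferation and signalling lay nearer the general level. Of the domains at 32 cell cycle genes, 33 of 121 (27.3%, 19.6 to 36.1) were myoblast-only, and 4 genes were predominantly so: Ccne2 (cyclin E2, 3 of 4 domains), Cdk6 (a G1 kinase, 6 of 10), Rbl1 (the pocket protein p107, 4 of 7) and E2f7 (a repressor E2F, 3 of 5). Matrix and fibroblast genes stood at 27.7% (53 of 191), with Tnc (tenascin C, 6 of 11) and Col5a2 (a fibrillar collagen chain, 4 of 8), and TGF-beta and BMP genes at 23.3%, with Inhbb (the activin beta B subunit) at 3 of 4. Growth factor signalling genes stood at 20.8% (46 of 221), with Fgfr2, an FGF receptor, at 9 of 14 and Hgf, the ligand of Met, at 3 of 5. AP-1 and immediate early genes were at 19.1% (11.8 to 28.6), with 5 of 6 domains at Nr4a2, an orphan nuclear receptor. SRF and YAP targets stood lower, at 16.4% (10.7 to 23.6), an interval that did not cover the general 24.2%. Of the adipocyte and osteoblast markers only Adipoq, adiponectin, was predominantly myoblast-only, with 4 of 5, and it was listed at 0 FPKM in GFPi. In the same list Pparg had 5 of 15 at 10.3 FPKM, Runx2 3 of 24 at 12.7 FPKM and Alpl 2 of 6 at 0 FPKM. Among families, cadherins reached 34.0% (24.9 to 44.0), Sox genes 34.2% (19.6 to 51.4) and fibroblast growth factors and their receptors 33.0% (23.3 to 43.8). Semaphorins and plexins stood at 15.3% (10.3 to 21.4), T-box genes at 12.5% (2.66 to 32.4) and matrix metalloproteases at 11.4% (3.20 to 26.7). Of these families, only the intervals of cadherins and of semaphorins and plexins did not cover the general 24.2%. The domains of one list share 2 libraries and are not replicates, and no list was tested against others.

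**Figure D4:**
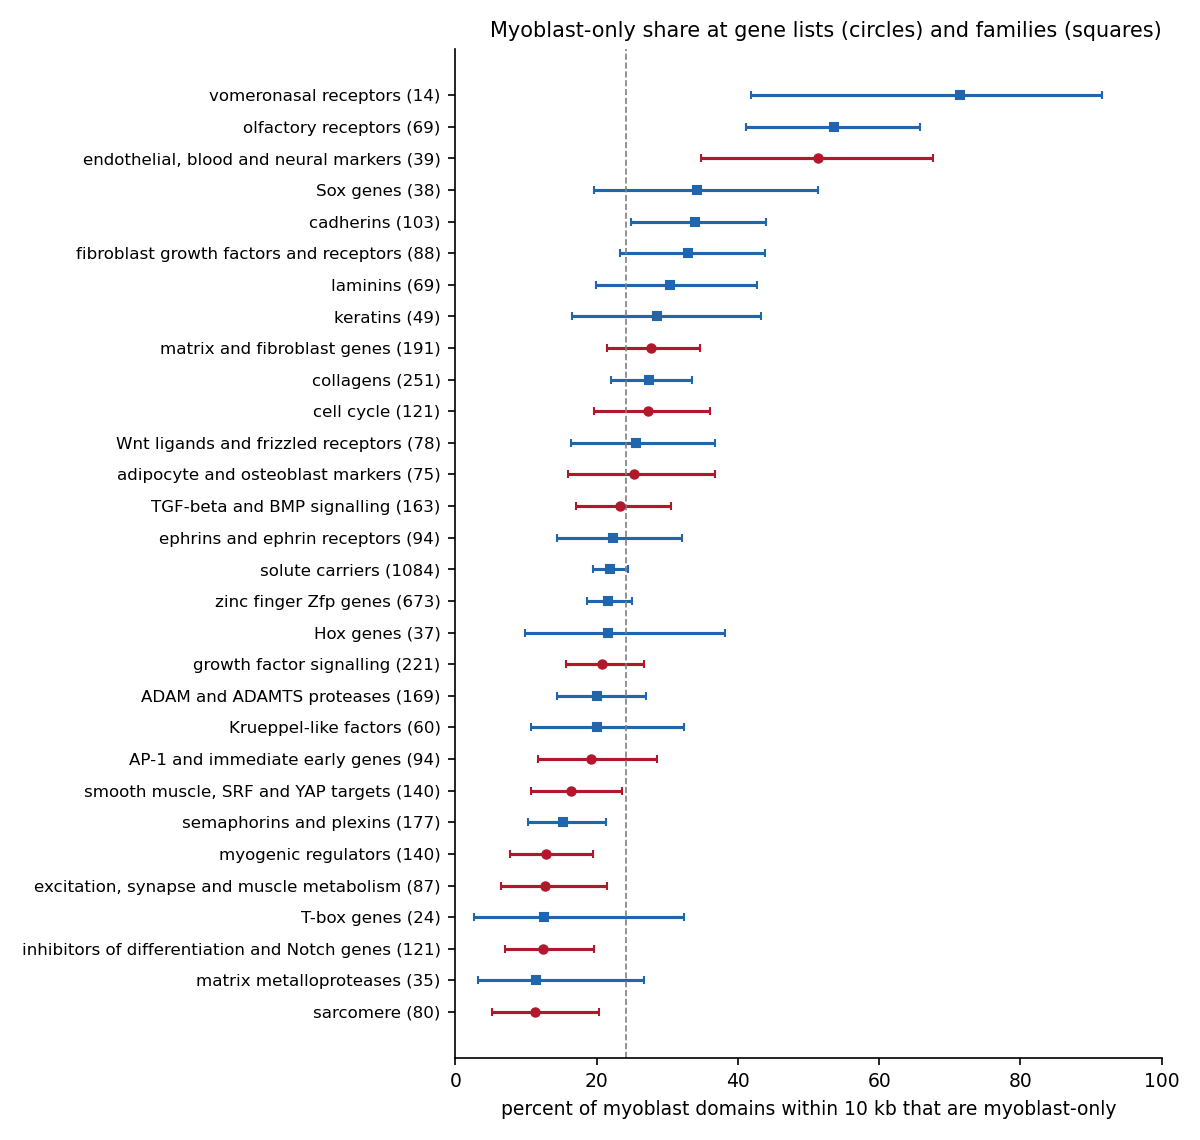
Percent of the myoblast H3K4me1 domains within 10 kb of a list's genes that are myoblast-only, with exact 95% intervals for counting error and the number of domains in brackets. Circles are lists of genes by function, squares are gene families, and the dashed line is the level over all genes, 24.2%. The integrin family (33 of 152 domains, 21.7%) is not drawn. Sarcomere genes (11.3%) and myogenic regulators (12.9%) lie left of the line, and olfactory and vomeronasal receptors (53.6% and 71.4%) lie right of it.

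At 4 h, predominantly myoblast-only genes had a median of 1.64 FPKM in GFPi (1.05 to 2.60) and 1.60 in pHAN_GFP, close to the 1.39 and 1.61 FPKM of all genes. Genes with at least 3 myoblast domains that were not predominantly myoblast-only stood at 8.62 and 8.92 FPKM. The 87 genes without any myotube domain stood at 0.140 FPKM. Muscle markers were expressed in GFPi, with the myogenic factor Myod1 at 37.7 FPKM, the intermediate filament gene Des at 267 and the muscle cadherin Cdh15 at 76.7. Endothelial Cdh5 and leukocyte Ptprc were at 0.00755 and 0. Of the non-muscle markers read, macrophage Cd68 stood highest in GFPi, at 2.52 FPKM, followed by fibroblast Pdgfra at 0.920. Most of the 20 genes with the largest summed length stood at 1 FPKM or more in GFPi. Among them were Ltbp1 at 55.5 FPKM, Hmga2 at 39.0 and Pla2g4a, a phospholipase with 11 of 19 domains, at 13.3. Those below 1 FPKM were Prkg1, Npas3, Grip1 and Dlg2. Grip1, a synaptic scaffold with 16 of 19 domains, stood at 0.0471 FPKM, and Dlg2, another synaptic scaffold with 22 of 34, at 0.00997. By gene start the class stood above all genes. The 1081 genes with a myoblast-only and no shared domain within 1 kb of the start were 7.57% of 14280 matched starts. Their median was 5.92 FPKM (4.87 to 7.18), against 1.90 (1.61 to 2.18) over all matched starts. It was 11.2 for starts with a shared domain and 0 for starts with neither. A myotube domain lay within 1 kb of the start for 149 of the 1081, and for 841 of the 6894 starts with neither.

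Between DRRi and GFPi the median difference of predominantly myoblast-only genes was close to that of all genes. For the 436 whose 2 libraries averaged at least 1 FPKM, the median log2 difference of FPKM + 1 between DRRi and GFPi was 0.04, against 0.02 over 10577 genes. At least 1.5-fold higher in DRRi were 29 (6.65%, against 4.66% of all) and at least 1.5-fold lower 11 (2.52%, against 3.5%). At least 2-fold higher were 4 (Inhbb, Slc19a2, Apol9b and Lce1g), where 0.898% of all genes were, and lower 1 (Gas2), where 0.804% were. The authors' deposited table called 2 of these 436 genes higher and 1 lower at q below 0.05, where 0.643% and 0.577% of all genes were. Inhbb stood at 9.92 FPKM in DRRi and 1.92 in GFPi, a log2 difference of 1.90 (q = 2.41e-06 in the authors' deposited table). Slc19a2, a thiamine transporter with 3 of 5 domains, stood at 30.5 and 13.4 FPKM (q = 0.0143 in the authors' deposited table). Gas2, with 5 of 8 domains, was the one called lower, at 5.72 and 18.3 FPKM, a log2 difference of -1.52 (q = 0.00200 in the authors' deposited table). Gas2 was not among the genes called in the overexpression experiment, at 13.1 FPKM in pHAN_DRR1.2 and 10.8 in pHAN_GFP. Ccne2 stood at 17.7 FPKM in DRRi and 32.8 in GFPi, a log2 difference of -0.86 that the authors' deposited table did not call.

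Overexpression gave smaller differences. Among 428 predominantly myoblast-only genes the median log2 difference between pHAN_DRR1.2 and pHAN_GFP was 0.03, against 0.02 over 10699 genes. At least 1.5-fold higher were 8 (1.87%, against 1.38% of all) and at least 1.5-fold lower 2 (0.467%, against 0.654%). At least 2-fold higher was Igsf11 (0.318% of all genes) and at least 2-fold lower Lars2 (0.0841%). The authors' deposited table called 6 of the 428 higher (0.981% of all genes) and 4 lower (0.542% of all). Higher were Hmga2, at 34.2 and 20.4 FPKM (q = 0.00440 in the authors' deposited table), and Cdh18, a cadherin with 8 of 15 domains, at 10.2 and 4.84 FPKM. The others were Igsf11, an adhesion molecule with 7 of 8 domains, at 3.63 and 1.21 FPKM, Col8a1 (a short-chain collagen), Errfi1 (an inhibitor of EGF receptors) and Mdm1. Summed over its coding sequences, Mdm1 stood at 3.55 and 2.71 FPKM, a log2 difference of 0.29. Lower were Smoc2, a matricellular protein with 9 of 13 domains, at 9.85 and 16.3 FPKM, Lars2, a mitochondrial leucyl-tRNA synthetase, at 52.4 and 195 FPKM, Fat4, a giant cadherin, and Taz, a mitochondrial acyltransferase. The call on Taz was made on one of its coding sequences, while the sum over its coding sequences was 11.2 and 11.0 FPKM. The 2 RNA experiments were normalized separately, so levels are not compared between them.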

How the data were processed

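H3K4me1 domain lists of myoblasts and myotubes, MyoD and MyoG peak lists and 2 expression tables were used, with 1 sample per group. The submitters' processing notes name TopHat, SICER and the mm9 build without versions, and the peak caller behind the MyoD and MyoG lists is not given in the sources used here. The deposited domain lists have no header. Their columns were read as SICER output: ChIP read count and control read count per domain, a p-value, the fold of ChIP over control as a ratio scaled by library size, and a q-value computed by the authors. All domain lengths are multiples of 200 bp. The deposited peak lists give the authors' score per peak. The labels name 2 ChIP runs for each MyoD and MyoG sample but 1 list is used for each. The deposited expression tables are Cuffdiff output per coding sequence, per the file headers, with FPKM values and a q-value from the authors, and the p-value and q-value compare single libraries.

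Overlap meant 1 shared base. A gene's FPKM was the sum over its coding sequences, and its locus the span in the tables, which can hold several genes. Log2 differences used FPKM + 1 over genes whose 2 libraries averaged at least 1 FPKM, understating changes of low genes. Domains were assigned to loci within 10 kb. The columns named eBi and Phan_eB were read as DRRi and pHAN_DRR1.2 because each table holds that sample and its GFP control. Named domains were the 10 with most reads, the 10 longest, the 10 of highest fold with at least 10 control reads and the 10 with most MyoD peaks, and domains of highest MyoD score were added after values were seen. Named genes were the 20 with the largest summed length, the same among predominantly myoblast-only genes, the 10 highest and 10 lowest differences in each RNA experiment at a mean of 5 FPKM or more, and up to 4 members of each list. Genes the authors called, genes at 2-fold, genes beside runs and the other list members named were chosen after values were seen. The domains, lists and families were chosen with earlier results of these data known. Promoters come from RefSeq GRCm38.p6, matched by symbol for 14280 gene starts. Domain sequences were not read, since no mm9 genome was used here. Python 3.11.15, numpy 2.4.6, pandas 2.3.3, scipy 1.17.1 and matplotlib 3.10.9 were used, and the overlap and interval code was tested on simulated data.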

Additional observations from a re-analysis of the deposited data

How the results depend on the processing

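No paired analysis was possible because each group has 1 sample, and no library could be left out. Depth is known only as reads inside domains, so a domain below the myotube threshold cannot be told apart from one without the mark. Of 40 alternatives to 10 results, 26 stayed within their interval or within 1.5 times the count. A change of direction could be scored only for the median log2 differences, where 0 occurred. Restricting to a fold of 2 or more left 11767 domains. The share with a myoblast MyoD peak was 5.32% with the peak centre inside, 3.60% with scores of 100 or more, 6.28% for domains of 1000 bp or more and 7.33% at a fold of 2 or more, where shared domains gave 24.3%, 19.3%, 26.1% and 31.8%. Peaks of score 100 or more were called again in myotubes in 37.7% of cases. The share far from loci was 52.0% beyond 1 kb, 41.7% beyond 10 kb and 47.7% without domains that have a myotube domain within 1000 bp. Within 50 kb of loci, 1772 genes were predominantly myoblast-only. For the class within 10 kb, restricted to genes whose 2 libraries averaged 1 FPKM or more, the median in GFPi was 9.19 FPKM. Without the filter on low values the median log2 difference was 0 in DRRi and 0.000842 in pHAN_DRR1.2, and within 50 kb it was 0.0147 in pHAN_DRR1.2. The cause was not tested. Leaving out chromosome X or the chromosome 8 stretch, chosen after seeing the data, gave 18364 and 18690 domains, and moved the 2 MyoD shares and the share far from loci by less than their intervals.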
